A study of Mus musculus with 8 samples.

Results

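The 10 genes described here encode surface molecules by which plasma cells attach to other cells and to matrix: Sdc1, Cd93, Itga4, Itgb1, Itgb7, Itgal, Itgb2, Cd44, Epcam and Cd9. They were chosen by name, and all 10 were found among the 27179 genes of the count table and among the 15073 genes that passed the filter on low counts. RNA was sequenced from plasma cells of mouse bone marrow, on the C57BL/6 background, that had been sorted as positive for a Blimp1-GFP reporter and for surface CD138. Sdc1 encodes CD138, so the sort acted on that gene's product in every group. The 8 libraries form 4 groups of 2: Blimp1KO (Blimp1-/-) and WT of batch 1, and Xbp1KO (Xbp1-/-) and WT of batch 2. The reporter gate applies to all 4 groups, WT included. The deposited tables of batch 2, those of WT and of Xbp1KO alike, are named for a CreER allele. How and when either gene was deleted, what the mice were given, and their age, sex and number per library are not given in the sources used here. The series text calls the replicates biological.

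Plasma cells persist in bone marrow in contact with stromal cells that make CXCL12 and with myeloid cells that supply survival factors. Integrins are pairs of an alpha and a beta chain, and each chain reaches the surface only as part of a pair. The alpha 4 chain pairs with beta 1 to bind VCAM-1 and fibronectin, or with beta 7 to bind MAdCAM-1 in gut vessels. The alpha L chain pairs with beta 2 to form LFA-1, which binds ICAM-1. Syndecan-1 is a heparan sulfate proteoglycan that marks plasma cells, CD44 binds hyaluronan, CD93 is a C-type lectin-like receptor that plasma cells need for long persistence in marrow, EpCAM is an adhesion molecule best known from epithelia, and CD9 is a tetraspanin, a class of proteins that associates with integrins in the membrane.

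In Xbp1KO cells 2 of the 10 genes passed the test against WT of their batch, and in Blimp1KO cells 0 of the 10 did, with 3 at an unadjusted p below 0.05 and 3 called by DESeq2. Itgb2, the shared beta chain of the leukocyte integrins, fell 10.6-fold in Xbp1KO libraries, and Epcam rose 3.21-fold there. The test was edgeR's quasi-likelihood test over all genes, with a gene called at an adjusted p below 0.05, and each log2 fold change below is followed by its standard error (SE, n = 2 libraries per group). Of all genes tested, 7.70% were called in Xbp1KO (5.06% lower and 2.63% higher) and 0.862% in Blimp1KO. Over all 15073 genes, 3552 in Xbp1KO and 2093 in Blimp1KO had an unadjusted p below 0.05 in edgeR. DESeq2 called 2220 of these 15073 genes in Xbp1KO and 862 in Blimp1KO. These totals are the background for the same counts in the lists below. The median log2 fold change was 0.16 over the 10 genes and 0.08 over all genes in Xbp1KO, and -0.10 over the 10 genes and -0.0061 over all genes in Blimp1KO. CPM, counts scaled to a common library size with TMM factors, did not overlap between knockout and WT libraries for 8 of the 10 genes in Xbp1KO, where this held for 57.6% of all genes, and for 6 of the 10 in Blimp1KO, where it held for 43.1%. All changes are relative to the TMM scale; scaling by total counts raised the median of all genes by 0.79 in Blimp1KO and 1.15 in Xbp1KO, and turned the sign of Sdc1, Itgal, Itgb2 and Cd44 in Blimp1KO and of Cd93, Itgb7, Itgal and Cd44 in Xbp1KO. Between WT of batch 2 and WT of batch 1, 0 of the 10 genes and 2.81% of all genes were called. In that comparison 1 of the 10 had an unadjusted p below 0.05 in edgeR and 1 was called by DESeq2. Over all 15073 genes, the same counts were 4087 and 1960.

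**Figure D1:**
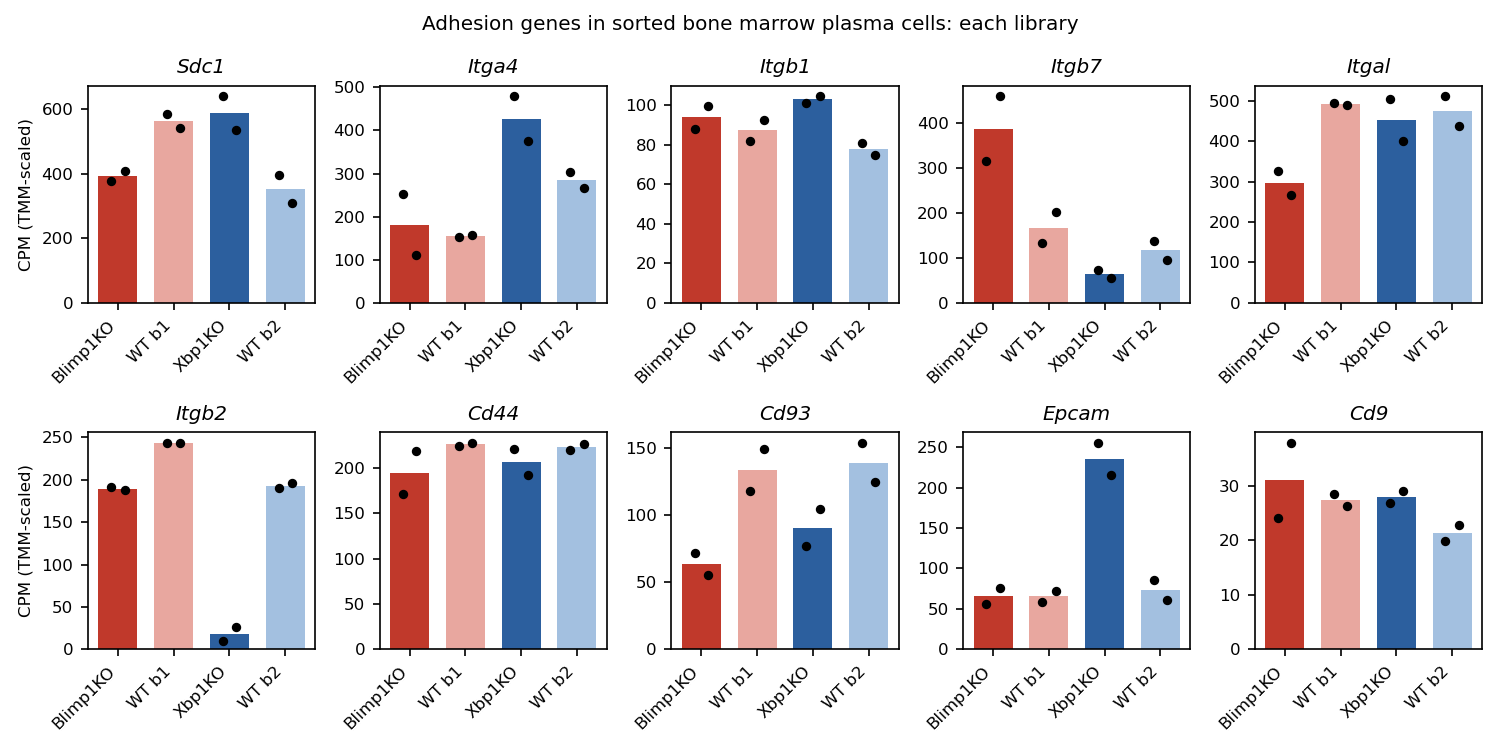
CPM of the 10 genes in each of the 8 libraries (points) on an axis from 0 set per gene, with Blimp1KO left of WT of batch 1 (WT b1) and Xbp1KO left of WT of batch 2 (WT b2); bars mark the mean of each pair of libraries. Itgb2 stands at 10.4 and 25.9 CPM in Xbp1KO and between 188 and 243 CPM in the other 6 libraries, while Epcam stands at 215 and 255 CPM in Xbp1KO and between 56.6 and 85.4 CPM elsewhere.

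Libraries held 44012152 to 145411827 counts, of which immunoglobulin genes took 25.2% to 75.7%, and the 10 genes had 1250 to 119518 counts per library. Prdm1, which encodes Blimp1, had 243 and 176 CPM in Blimp1KO and 301 and 306 CPM in WT of batch 1, and Xbp1 had 1302 and 1105 CPM in Xbp1KO and 2129 and 2203 CPM in WT of batch 2. Neither change was called, and counts over a whole gene include exons outside a deleted part, so they do not check the labels. All 12 plasma cell markers were detected in every library. In Blimp1KO 0 of 12 were called (4 at an unadjusted p below 0.05, and 3 by DESeq2), and in Xbp1KO 3 of 12 were called lower. All 12 had a lower estimate in Blimp1KO, with a median of -0.55. In Xbp1KO 7 were lower and 5 higher, with a median of -0.37. Their sum was 59084 to 72569 CPM in Blimp1KO and 110982 to 119509 CPM in WT of batch 1. It was 32496 to 40596 CPM in Xbp1KO and 50915 to 68514 CPM in WT of batch 2. Jchain made up most of each sum. The 16 neutrophil and monocyte markers summed to 3.22 CPM in Xbp1KO replicate 1 and 1472 CPM in Xbp1KO replicate 2, and to 8.32 and 607 CPM in WT replicates 3 and 4 of batch 2, so the second library of each group stood apart. In batch 1 these markers summed to 300.5 to 578.9 CPM in Blimp1KO and 404 to 526 CPM in WT. Of 10 mature B cell markers, 0 were called in Blimp1KO by edgeR, 7 had an unadjusted p below 0.05 and 6 were called by DESeq2. They summed to 10178 to 14132 CPM in Blimp1KO and 5406 to 6098 CPM in WT of batch 1. Cd74 made up most of these sums, with 9211 and 12806 CPM in Blimp1KO against 5553 and 4888 CPM in WT. Of the 10 markers, 9 had a higher estimate in Blimp1KO and 1 a lower one, with a median log2 fold change of 1.26. In bulk RNA, fewer cells of a type and less RNA per cell cannot be told apart. In batch 1, the deposited FPKM file of each library followed the counts of the other replicate of the same group more closely than its own (r = 0.999 to 1.00 across genes, against 0.965 to 0.978), so replicate numbers are those of the count table; group membership is the same either way.

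Syndecan-1 transcripts were abundant in every group. Sdc1 (Entrez 20969, chr12:8771396-8793716, plus strand, GRCm38.p6) had 376 and 408 CPM in Blimp1KO against 584 and 540 CPM in WT of batch 1, while it had 639 and 534 CPM in Xbp1KO against 395 and 309 CPM in WT of batch 2. The libraries of each knockout thus lay apart from WT, below it in Blimp1KO and above it in Xbp1KO. Neither change was called (-0.52 ± 0.22, adjusted p = 0.361, in Blimp1KO; 0.74 ± 0.22, adjusted p = 0.0980, in Xbp1KO), and the difference between the effects was -1.26 ± 0.31 (adjusted p = 0.107). DESeq2 and limma on the authors' FPKM called Sdc1 higher in Xbp1KO and called the difference between the effects. The WT groups themselves lay apart, with WT of batch 2 over WT of batch 1 at -0.68 ± 0.22 (adjusted p = 0.125). DESeq2 also called Sdc1 between the WT groups. Against pooled WT the log2 fold change was -0.22 in Blimp1KO and 0.36 in Xbp1KO. The gate on CD138 bears on these levels, and its part in them was not tested.

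XBP1 and Blimp1 both bind DNA, so the promoters of the 10 genes were searched on both strands for letters that each is known to bind. RefSeq promoters (GRCm38.p6, 250 bases before to 50 after the start) were matched for 7 of the 10: Sdc1, Itga4, Itgb1, Itgb7, Cd44, Epcam and Cd9. The sequences shown are those of the sort marker and of the genes with the highest estimated rise in each knockout, Itgb7 in Blimp1KO and Epcam in Xbp1KO; capitals mark the complement of CCACG, and a sequence without capitals holds none of the motifs.
Sdc1 (chr12:8771146-8771445, plus strand): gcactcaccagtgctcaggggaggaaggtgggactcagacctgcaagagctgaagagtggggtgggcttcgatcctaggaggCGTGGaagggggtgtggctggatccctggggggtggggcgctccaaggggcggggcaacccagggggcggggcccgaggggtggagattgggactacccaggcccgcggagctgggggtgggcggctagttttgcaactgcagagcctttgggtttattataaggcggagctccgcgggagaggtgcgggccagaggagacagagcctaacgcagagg
Itgb7 (chr15:102231886-102232185, minus strand): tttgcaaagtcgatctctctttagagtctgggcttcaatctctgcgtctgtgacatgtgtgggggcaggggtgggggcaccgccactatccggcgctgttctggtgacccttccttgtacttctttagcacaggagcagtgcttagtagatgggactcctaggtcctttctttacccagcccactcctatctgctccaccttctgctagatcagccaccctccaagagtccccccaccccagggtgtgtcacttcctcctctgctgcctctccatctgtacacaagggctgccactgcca
Epcam (chr17:87635729-87636028, plus strand): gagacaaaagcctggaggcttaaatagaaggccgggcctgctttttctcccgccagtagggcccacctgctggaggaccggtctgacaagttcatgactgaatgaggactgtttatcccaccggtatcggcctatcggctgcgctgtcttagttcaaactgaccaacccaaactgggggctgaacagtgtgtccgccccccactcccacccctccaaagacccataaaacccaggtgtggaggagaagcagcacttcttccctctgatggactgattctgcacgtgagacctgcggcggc
TGACGTGG, the unfolded protein response element, was in 0 of the 7 and in 0.676% of all 32851 promoters, and the ER stress response element, CCAAT and CCACG with 9 bases between, was in 0 of the 7 and in 0.119%. CCACG alone, which lies inside the ER stress response element and, as its complement, inside the unfolded protein response element, was in 3 of the 7 (Sdc1, Itga4 and Cd44) and in 32.8% of all promoters; in Sdc1 it began at base -168, counted from the start. AGNGAAAG, the core of the Blimp1 motif, was in 2 of the 7 (Cd44 and Cd9) and in 8.63% of all promoters. A match describes letters in this window and is not a binding site. The Itgb7 window lies inside the gene span of chr15:102215994-102233405 on the minus strand, so sequence before its outermost start was not searched.

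Neither alpha 4 nor beta 1 transcripts passed the test in either knockout. Itga4 (Entrez 16401, chr2:79255426-79333114, plus strand) had 252 and 110 CPM in Blimp1KO against 153 and 157 CPM in WT of batch 1, so the Blimp1KO libraries lay on either side of WT. It had 479 and 375 CPM in Xbp1KO against 304 and 267 CPM in WT of batch 2, both above WT. The log2 fold change in Blimp1KO was 0.22 ± 0.37 (adjusted p = 0.886), and that in Xbp1KO was 0.58 ± 0.37 (adjusted p = 0.409). Exons of Itga4 share 1124 bases, 8.04% of its exon length, with Cerkl on the opposite strand, and the strand setting of the counting is not given in the sources used here. Itgb1 (Entrez 16412, chr8:128685654-128733579, plus strand), the beta 1 chain, had 88.1 and 99.4 CPM in Blimp1KO against 81.9 and 92.4 CPM in WT of batch 1, while it had 101 and 104 CPM in Xbp1KO against 80.8 and 74.8 CPM in WT of batch 2. Its libraries overlapped in batch 1 and lay higher in Xbp1KO, with log2 fold changes in Blimp1KO of 0.11 ± 0.16 (adjusted p = 0.872) and in Xbp1KO of 0.40 ± 0.16 (adjusted p = 0.182).

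Itgb7 (Entrez 16421, chr15:102215994-102233405, minus strand), the gut-homing beta 7 chain, had the highest estimate of the 10 genes in Blimp1KO. It had 316 and 460 CPM in Blimp1KO against 132 and 201 CPM in WT of batch 1, while it had 73.9 and 55.5 CPM in Xbp1KO against 138 and 95.5 CPM in WT of batch 2. Both Blimp1KO libraries lay above WT and both Xbp1KO libraries below it. Log2 fold changes in Blimp1KO of 1.22 ± 0.32 (adjusted p = 0.159) and in Xbp1KO of -0.85 ± 0.32 (adjusted p = 0.167) did not pass, and their difference was 2.07 ± 0.46 (adjusted p = 0.0782). DESeq2 called all 3. The mature B cell markers that were higher in sum in Blimp1KO moved with Itgb7 there. In Xbp1KO, where Itgb7 lay below WT, 8 of the 10 markers had a higher estimate and 2 a lower one. Their median log2 fold change there was 0.37, with 1 called higher. They summed to 2666 to 3039 CPM in Xbp1KO and 3663 to 3987 CPM in WT of batch 2. The part of these markers in the Itgb7 level was not tested.

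Per length, the ratio of the beta chains that pair with alpha 4 lay apart from WT in both knockouts, on opposite sides. In the authors' FPKM, the log2 ratio of Itgb7 to Itgb1 was 2.46 ± 0.12 in Blimp1KO and 1.51 ± 0.29 in WT of batch 1, and -0.03 ± 0.32 in Xbp1KO and 1.21 ± 0.28 in WT of batch 2 (SD, n = 2 each). As a plain ratio of FPKM it was 5.86 and 5.19 in Blimp1KO against 3.27 and 2.47 in WT of batch 1, and 1.15 and 0.839 in Xbp1KO against 2.65 and 2.01 in WT of batch 2. The Blimp1KO libraries lay above and the Xbp1KO libraries below their WT without overlap, by 0.95 and -1.23 on the log2 scale. The exact 2-sided permutation test gave p = 0.333 in each case, the smallest that 2 against 2 libraries allow.

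**Figure D2:**
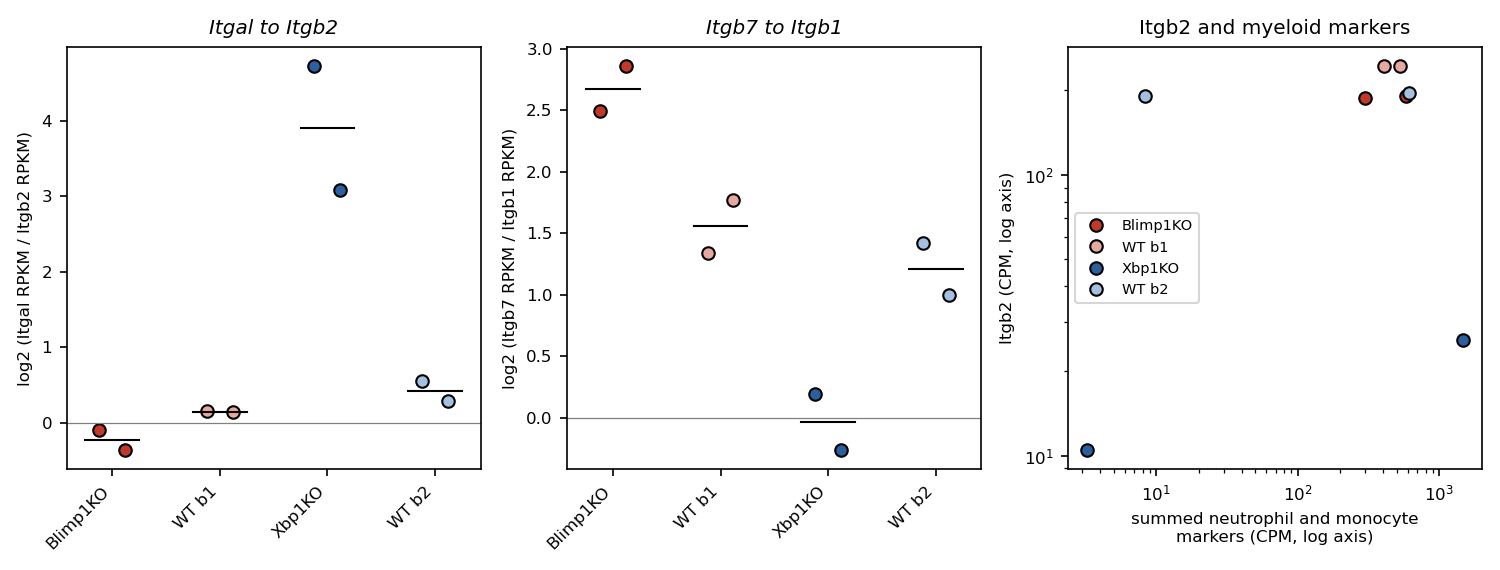
Log2 ratios of RPKM in each library (points, with lines at the mean of each group) for Itgal over Itgb2 and for Itgb7 over Itgb1, and Itgb2 CPM against the summed CPM of 16 neutrophil and monocyte markers (both axes log). The ratio of Itgal to Itgb2 is 4.72 and 3.08 in Xbp1KO against 0.55 and 0.29 in WT of batch 2, and Itgb2 is low in both Xbp1KO libraries, whose marker sums are 3.22 and 1472 CPM.

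Transcripts of the beta chain of LFA-1 fell in Xbp1KO cells, and those of its alpha chain gave no call. Itgb2 (Entrez 16414, chr10:77530329-77565708, plus strand) had 10.4 and 25.9 CPM in Xbp1KO against 190 and 196 CPM in WT of batch 2, while it had 191 and 188 CPM in Blimp1KO against 243 and 243 CPM in WT of batch 1. In reads, this was 1954 and 2398 counts in Xbp1KO against 22305 and 13565 counts in WT of batch 2. Both Xbp1KO libraries lay far below all 6 others, and both Blimp1KO libraries lay somewhat below their WT. The log2 fold change in Xbp1KO was -3.41 ± 0.41 (adjusted p = 0.00603), and that in Blimp1KO was -0.36 ± 0.37 (adjusted p = 0.775). The difference between the effects, Blimp1KO minus Xbp1KO, was 3.05 ± 0.54 (adjusted p = 0.0476), the 1 call among the 10 genes where 1.68% of all genes were called. Ranked by RPKM, CPM per kilobase of the deposited gene length, Itgb2 stood at the 67.8th percentile of tested genes in Xbp1KO and at the 96.4th in WT of batch 2.

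The fall of Itgb2 passed in all 18 alternative fits of that comparison, with log2 fold changes of -4.20 to -2.21 and adjusted p up to 0.0410. Without Xbp1KO replicate 2 it was -4.18, and without that library and WT replicate 4 it was -4.20. The call on the difference was lost without Blimp1KO replicate 2 (adjusted p = 0.0529), without either WT library of batch 1 (0.177 and 0.221 as adjusted p), without either WT library of batch 2 (adjusted p = 0.155 and 0.136), without Xbp1KO replicate 2 and WT replicate 4 together (3.88, adjusted p = 0.0661) and on total counts (2.64, adjusted p = 0.0900). Neutrophils and monocytes also use Itgb2; Itgb2 was at 10.4 CPM in Xbp1KO replicate 1, where their 16 markers summed to 3.22 CPM, and at 25.9 CPM in Xbp1KO replicate 2, where these summed to 1472 CPM. In WT of batch 2, Itgb2 was at 190 CPM beside a sum of 8.32 CPM and at 196 CPM beside a sum of 607 CPM. The part of myeloid cells in the Itgb2 level was not tested.

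Itgal (Entrez 16408, chr7:127296139-127335137, plus strand), the alpha L chain, had 503 and 400.2 CPM in Xbp1KO against 511 and 437 CPM in WT of batch 2, while it had 326 and 267 CPM in Blimp1KO against 494 and 490 CPM in WT of batch 1. The Xbp1KO libraries overlapped WT, and the Blimp1KO libraries lay below it. The log2 fold change in Xbp1KO was -0.07 ± 0.22 (adjusted p = 0.890), and that in Blimp1KO was -0.73 ± 0.22 (adjusted p = 0.209), which DESeq2 called. The log2 ratio of Itgal to Itgb2 in RPKM, chosen after its values were seen, was 3.90 ± 1.16 in Xbp1KO and 0.42 ± 0.19 in WT of batch 2, and -0.23 ± 0.19 in Blimp1KO and 0.15 ± 0.0054 in WT of batch 1 (SD, n = 2 each).

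EpCAM transcripts rose in Xbp1KO cells. Epcam (Entrez 17075, chr17:87635979-87651127, plus strand) had 255 and 215 CPM in Xbp1KO against 85.4 and 61.0 CPM in WT of batch 2, while it had 56.6 and 76.3 CPM in Blimp1KO against 58.7 and 72.7 CPM in WT of batch 1. Both Xbp1KO libraries lay above all 6 others, and Blimp1KO and WT overlapped. The log2 fold change in Xbp1KO was 1.68 ± 0.25 (adjusted p = 0.0125), and that in Blimp1KO was 0.02 ± 0.25 (adjusted p = 0.996). The difference between the effects was -1.67 ± 0.35 (adjusted p = 0.0710). Among the fits that kept all 8 libraries, DESeq2, limma on the authors' FPKM, the fit without a low-count filter and the fit on total counts called that difference. The call in Xbp1KO was lost without Xbp1KO replicate 1 (1.48, adjusted p = 0.0691), without WT replicate 3 (1.94, adjusted p = 0.0554), without WT replicate 4 (1.46, adjusted p = 0.0995) and without both Xbp1KO replicate 2 and WT replicate 4 (1.57, adjusted p = 0.181).

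Some markers of other cells were higher beside Epcam in Xbp1KO. The 9 dendritic cell markers summed to 51.6 to 56.0 CPM in Xbp1KO and 13.3 to 18.1 CPM in WT of batch 2, with 2 of 9 called. Those 2 were Ccr9 and Cox6a2, which made up most of the sum in both groups. Ccr9 had 25.7 and 20.3 CPM in Xbp1KO against 9.19 and 6.73 CPM in WT of batch 2. Cox6a2 had 26.5 and 21.7 CPM in Xbp1KO against 5.40 and 2.71 CPM in WT of batch 2. Of the 9, 7 had a higher estimate in Xbp1KO and 2 a lower one, with a median log2 fold change of 1.01. Flt3 had 3.21 and 4.58 CPM in Xbp1KO against 2.07 and 2.61 CPM in WT of batch 2. Siglech had 0.0481 and 3.06 CPM in Xbp1KO against 0.256 and 0.360 CPM in WT of batch 2. Xcr1 had 0.283 and 0.604 CPM in Xbp1KO against 0.794 and 0.432 CPM in WT of batch 2. Clec9a had 0.0160 and 0.0324 CPM in Xbp1KO against 0.0427 and 0.0721 CPM in WT of batch 2. The 10 B progenitor markers summed to 48.7 to 80.7 CPM in Xbp1KO and 29.4 to 38.7 CPM in WT of batch 2, with 1 of 10 called. All 10 had a higher estimate in Xbp1KO, with a median log2 fold change of 1.47. The called gene, Kit, had 17.2 and 13.0 CPM in Xbp1KO against 4.93 and 5.32 CPM in WT of batch 2. Il7r had 1.42 and 10.5 CPM in Xbp1KO against 1.67 and 2.41 CPM in WT of batch 2. The part of the dendritic cell and B progenitor markers in the Epcam level was not tested. Stromal and endothelial markers summed to 1.84 to 8.85 CPM in Xbp1KO and 4.33 to 8.69 CPM in WT of batch 2, T and NK cell markers to 10.7 to 18.1 CPM in Xbp1KO and 8.21 to 11.3 CPM in WT of batch 2, and erythroid and megakaryocyte markers to 22.3 to 738 CPM in Xbp1KO and 29.0 to 232 CPM in WT of batch 2. No marker of these lists was at 0 in both libraries of either group.

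**Figure D3:**
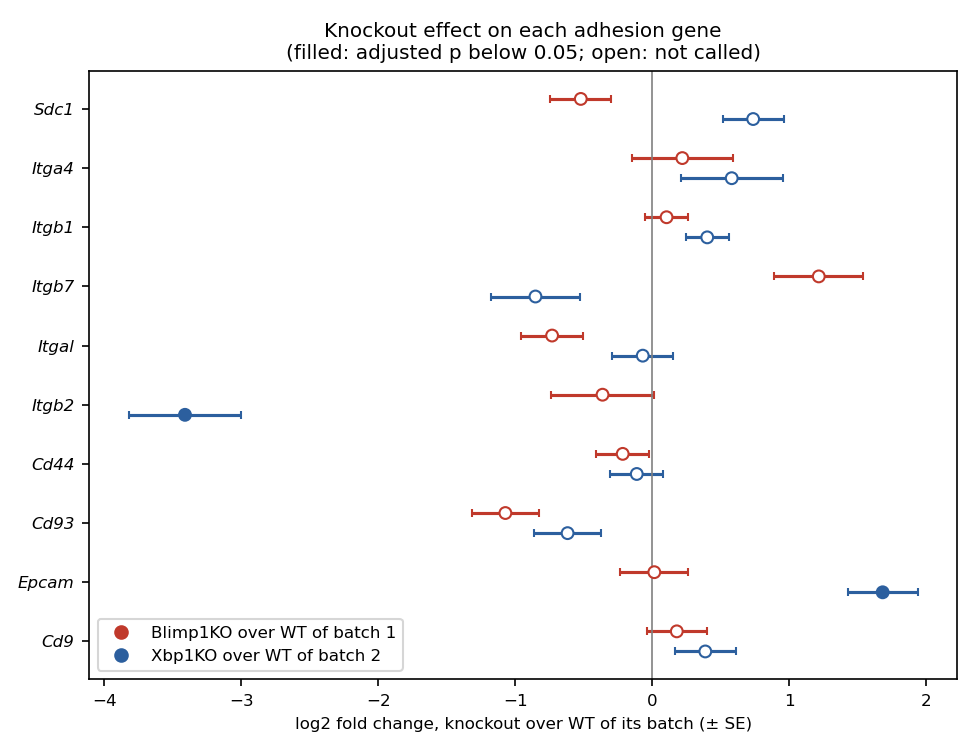
Log2 fold changes of the 10 genes with their standard errors (horizontal bars) in Blimp1KO over WT of batch 1 and in Xbp1KO over WT of batch 2; filled points passed an adjusted p below 0.05. Itgb2 at -3.41 and Epcam at 1.68 in Xbp1KO are the called points.

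The remaining 3 receptors gave no call in either knockout. Cd93 (Entrez 17064, chr2:148436651-148443535, minus strand) had 71.8 and 55.5 CPM in Blimp1KO against 118 and 149 CPM in WT of batch 1, while it had 77.0 and 105 CPM in Xbp1KO against 154 and 125 CPM in WT of batch 2. Its libraries lay below WT in both knockouts without a call, with log2 fold changes that were -1.07 ± 0.25 (adjusted p = 0.112) in Blimp1KO, which DESeq2 and the fit without a low-count filter called, and -0.62 ± 0.24 (adjusted p = 0.183) in Xbp1KO. Cd44 (Entrez 12505, chr2:102811141-102901669, minus strand) had 171 and 218 CPM in Blimp1KO against 224 and 227 CPM in WT of batch 1, while it had 221 and 192 CPM in Xbp1KO against 220 and 226 CPM in WT of batch 2. Blimp1KO libraries lay just below WT and Xbp1KO libraries overlapped it, with a log2 fold change in Blimp1KO of -0.21 ± 0.19 (adjusted p = 0.732) and in Xbp1KO of -0.11 ± 0.19 (adjusted p = 0.778). Cd9 (Entrez 12527, chr6:125460266-125494760, minus strand) had 24.1 and 37.9 CPM in Blimp1KO against 28.4 and 26.3 CPM in WT of batch 1, while it had 26.8 and 29.0 CPM in Xbp1KO against 19.8 and 22.8 CPM in WT of batch 2. The groups overlapped in batch 1 and Xbp1KO lay above WT in batch 2, with a log2 fold change in Blimp1KO of 0.18 ± 0.22 (adjusted p = 0.822) and in Xbp1KO of 0.39 ± 0.22 (adjusted p = 0.351). Exons of Cd9 share 218 bases, 10.7% of its exon length, with Gm26728 on the opposite strand.

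Levels between genes were compared per length, as mean RPKM. Sdc1 led in Xbp1KO (192), WT of batch 1 (184) and WT of batch 2 (115), and in Blimp1KO Itgb7 (145) and Sdc1 (128) overlapped. In both WT groups the order went on with Itgal, Itgb2, Itgb7, Cd44 and Epcam: 94.2, 85.0, 62.4, 40.0 and 31.9 RPKM in batch 1 and 90.7, 67.4, 43.7, 39.4 and 35.5 RPKM in batch 2. Each of these was apart from the next in batch 1, while Itgb7, Cd44 and Epcam overlapped their neighbours in batch 2. Itga4, Itgb1, Cd9 and Cd93 came last in both WT groups, at 15.8 to 29.0 RPKM. In Xbp1KO, Epcam stood second at 114 RPKM and Itgb2 last at 6.34 RPKM, each apart from its neighbours. Cd93 was last in Blimp1KO at 9.59 RPKM.

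Other integrin chains were read from a list of 15 tested alpha and 3 tested beta chains outside the 10 genes. In Xbp1KO, 1 alpha chain rose and 1 fell. The median over the 15 was 0.95, with 12 estimates higher and 3 lower. Some of the 15 had low CPM that stood apart between the 2 libraries of each group. Itga9 and Itgax, chosen after their values were seen, are examples. Itga9 had 0.257 and 6.31 CPM in Xbp1KO against 0.333 and 3.08 CPM in WT of batch 2. Itgax had 0.385 and 3.42 CPM in Xbp1KO against 0.307 and 2.02 CPM in WT of batch 2. In Blimp1KO 0 of 15 were called, with a median of -0.22, 4 at an unadjusted p below 0.05 and 2 called by DESeq2. Of the 3 beta chains 0 were called in either knockout, by edgeR or DESeq2, and 0 had an unadjusted p below 0.05. Itgam, the alpha M chain that pairs with beta 2 to form Mac-1, had 41.7 and 40.8 CPM in Xbp1KO against 7.66 and 14.8 CPM in WT of batch 2, while it had 58.7 and 44.6 CPM in Blimp1KO against 12.3 and 15.5 CPM in WT of batch 1. It was higher in all 4 knockout libraries than in WT, at 1.88 ± 0.32 (adjusted p = 0.0187) in Xbp1KO and 1.90 ± 0.32 (adjusted p = 0.0533) in Blimp1KO. Itgam is also a gene of myeloid cells. In Xbp1KO replicate 1 it stood at 41.7 CPM where the 16 neutrophil and monocyte markers summed to 3.22 CPM. In Xbp1KO replicate 2 it stood at 40.8 CPM beside a sum of 1472 CPM. In WT of batch 2 it was at 7.66 CPM beside 8.32 CPM and at 14.8 CPM beside 607 CPM. These markers summed to 300.5 to 578.9 CPM in Blimp1KO and 404 to 526 CPM in WT of batch 1. The part of myeloid cells in the Itgam level was not tested. Itgav, the alpha V chain, which binds vitronectin, fell by 1.05 ± 0.20 (adjusted p = 0.0275) in Xbp1KO, with 12.9 and 15.8 CPM against 31.0 and 28.2 CPM in WT of batch 2, and had a log2 fold change of -1.07 ± 0.20 (adjusted p = 0.0719) in Blimp1KO; on total counts the Xbp1KO value turned to 0.13. Among the beta chains, Itgb3 had log2 fold changes of 0.30 ± 0.14 in Blimp1KO and -0.15 ± 0.14 in Xbp1KO, and Itgb5 had -0.35 ± 0.19 in Blimp1KO and 0.23 ± 0.19 in Xbp1KO.

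Of 23 tested genes that link integrins to actin or activate them, 3 rose in Xbp1KO, with a median of 0.12, and 0 were called in Blimp1KO, by edgeR or DESeq2, with a median of -0.0059 and 3 at an unadjusted p below 0.05. Zyx, a focal adhesion protein, had 56.7 and 52.4 CPM in Xbp1KO against 25.2 and 29.7 CPM in WT of batch 2 (0.99 ± 0.15, adjusted p = 0.0137). Parvg, a parvin of blood cells, rose by 0.85 ± 0.16 (adjusted p = 0.0237), and Rasgrp2, which activates the integrin regulator Rap1, rose by 1.07 ± 0.24 (adjusted p = 0.0438). In Blimp1KO, Ptk2b had a log2 fold change of -0.64 ± 0.23 and Rasgrp2 of 0.65 ± 0.24, with adjusted p of 0.279 and 0.287.

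Among 26 tested syndecans, glypicans and heparan sulfate enzymes, which build the sugar chains that syndecan-1 carries, 3 fell in Xbp1KO, with a median of -0.20, and 1 rose in Blimp1KO, with a median of -0.11. Hs2st1, a 2-O-sulfotransferase, had 7.96 and 8.07 CPM in Xbp1KO against 17.7 and 14.7 CPM in WT of batch 2 (-1.01 ± 0.17, adjusted p = 0.0180). Glce, the glucuronic acid epimerase that acts before it, had 6.96 and 6.05 CPM in Xbp1KO against 14.2 and 13.8 CPM in WT of batch 2 (-1.10 ± 0.19, adjusted p = 0.0194). Hs3st3b1, a 3-O-sulfotransferase, fell by 1.59 ± 0.31 (adjusted p = 0.0296). On total counts Hs2st1 turned to 0.15 and Glce to 0.047, and Hs3st3b1 was not called at -0.46. In Blimp1KO, Gpc1, a glypican, had 14.8 and 19.9 CPM against 6.05 and 5.25 CPM in WT of batch 1 (1.62 ± 0.20, adjusted p = 0.0324). That call was lost with batch 1 alone (adjusted p = 0.0905).

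Tetraspanins other than Cd9 and their partners gave 1 call among 23 tested in Xbp1KO, with a median of 0.18, and 0 in Blimp1KO, with a median of 0.04, 4 at an unadjusted p below 0.05 and 2 called by DESeq2. Tspan17, which escorts the protease ADAM10, had 0.813 and 1.28 CPM in Xbp1KO against 4.48 and 3.07 CPM in WT of batch 2 (-1.86 ± 0.34, adjusted p = 0.0240). That call was lost on total counts (-0.65, adjusted p = 0.144) and with batch 2 alone (adjusted p = 0.0705). Cd37, a tetraspanin of mature B cells, had 183 and 292 CPM in Blimp1KO against 89.4 and 79.5 CPM in WT of batch 1 (1.49 ± 0.24, adjusted p = 0.0504), and Tspan32 had a log2 fold change of 0.81 ± 0.18 (adjusted p = 0.102) there. Of 9 tested CD44 splicing factors and hyaluronan or actin partners, 0 were called in either knockout, with 2 in Blimp1KO and 1 in Xbp1KO at an unadjusted p below 0.05 and 1 in each by DESeq2. Msn, which ties CD44 to actin, had a log2 fold change of 0.72 ± 0.19 (adjusted p = 0.145) in Blimp1KO, and Hmmr, a hyaluronan receptor also used in mitosis, had a log2 fold change in Blimp1KO of -1.19 ± 0.39 (adjusted p = 0.236) and in Xbp1KO of 1.16 ± 0.38 (adjusted p = 0.117). Hyal2, a hyaluronidase, had a log2 fold change of -0.57 ± 0.25 (adjusted p = 0.234) in Xbp1KO.

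A list of 32 tested further adhesion molecules gave 3 genes that rose and 1 that fell in Xbp1KO, with a median of 0.57. There, 24 estimates were higher and 8 lower. Vcam1, chosen after its values were seen, had 1.40 and 48.3 CPM in Xbp1KO against 2.02 and 15.0 CPM in WT of batch 2. In Blimp1KO 1 gene of the list fell, with a median of 0.09. Thbd, thrombomodulin, had 20.8 and 16.3 CPM in Xbp1KO against 55.3 and 63.4 CPM in WT of batch 2, while it had 13.8 and 16.7 CPM in Blimp1KO against 60.0 and 44.9 CPM in WT of batch 1. It fell in both knockouts, by 1.68 ± 0.21 (adjusted p = 0.00738) in Xbp1KO and by 1.78 ± 0.22 (adjusted p = 0.0320) in Blimp1KO. With batch 1 alone the Blimp1KO call was lost (adjusted p = 0.0873). Cd48, a ligand of the receptor CD244, had 150.1 and 112 CPM in Xbp1KO against 48.6 and 41.6 CPM in WT of batch 2 (1.54 ± 0.20, adjusted p = 0.00789), and Bsg, basigin, rose there by 1.01 ± 0.23 (adjusted p = 0.0455). Cldn7, a claudin that binds EpCAM in epithelia, had 15.7 and 12.7 CPM in Xbp1KO against 5.98 and 7.75 CPM in WT of batch 2 (1.05 ± 0.25, adjusted p = 0.0486). It had 4.13 and 5.48 CPM in Blimp1KO against 11.5 and 8.57 CPM in WT of batch 1, and the difference between the effects, Blimp1KO minus Xbp1KO, was -2.11 ± 0.35 (adjusted p = 0.0400).

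**Figure D4:**
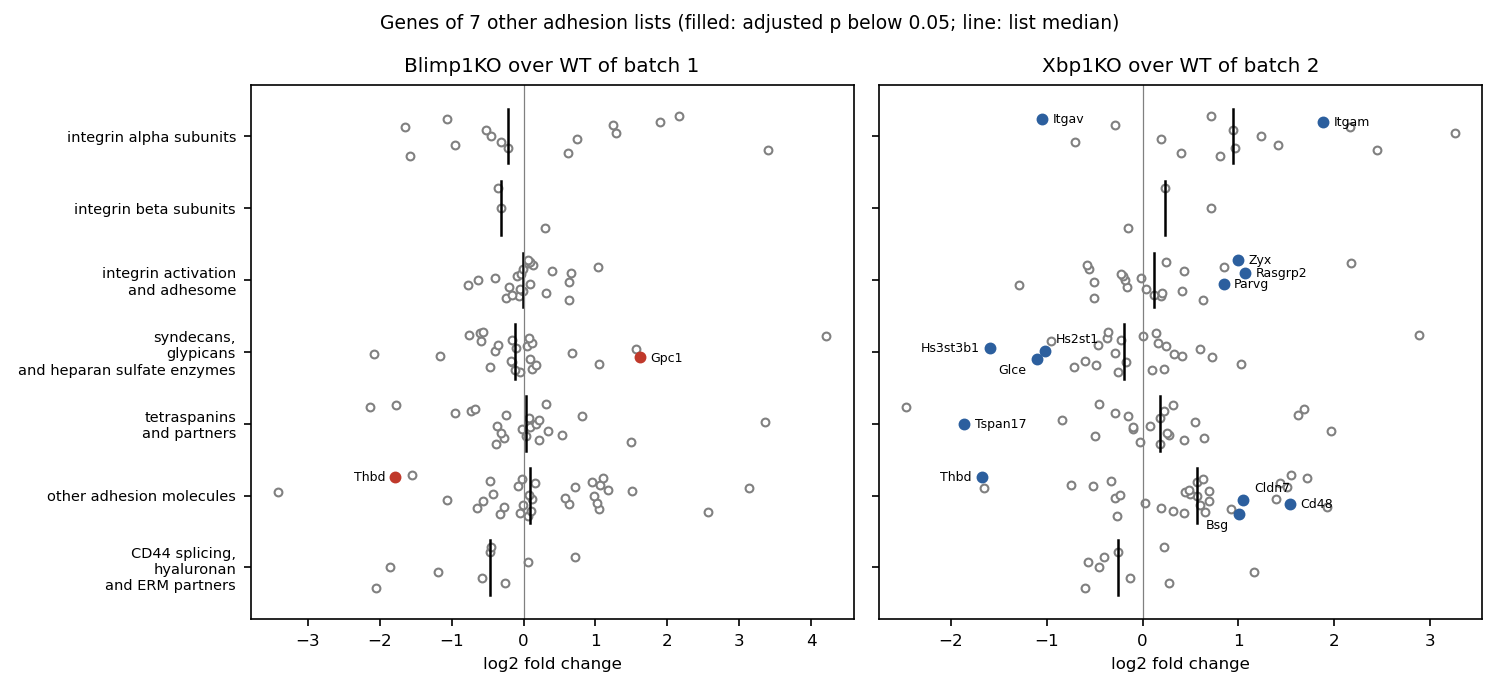
Log2 fold changes of every tested gene of the 7 other adhesion lists (points, filled and named where called) in Blimp1KO over WT of batch 1 and in Xbp1KO over WT of batch 2; a short line marks the median of each list. Called genes number 2 in Blimp1KO and 13 in Xbp1KO.

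Many calls in these lists were lost when 1 library was left out. Over all genes, calls also became fewer in Xbp1KO without 1 Xbp1KO or WT library. In Blimp1KO they became fewer without 1 WT library. Losses thus also occurred outside the lists, and the shares lost in the lists and over all genes were not compared. Of the 13 list genes called in Xbp1KO, 1 was still called without Xbp1KO replicate 1 (Thbd), 1 without Xbp1KO replicate 2 (Cd48), 1 without WT replicate 3 (Thbd), 1 without WT replicate 4 (Itgam), 0 without Xbp1KO replicate 2 and WT replicate 4 together (adjusted p up to 0.377), and 6 without either WT library of batch 1. Pooled WT ended the calls of Parvg, Rasgrp2, Bsg and Cldn7 in Xbp1KO, and leaving out immunoglobulin genes ended those of Rasgrp2, Bsg and Cldn7. Both list genes called in Blimp1KO stayed called without either Blimp1KO library and without either Xbp1KO library, and 0 of 2 without any 1 of the 4 WT libraries. The Cldn7 difference stayed called without either Blimp1KO library and in none of the other 6 such fits.

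The genes whose log2 CPM was most like that of Itgb2 over the 8 libraries, among 6780 candidates outside the 10, were Hgsnat (r = 0.996), Klhl21 (r = 0.994) and Cmas (r = 0.992). For Epcam they were Ahr (r = 0.980), Ddx20 (r = 0.980) and Ncstn (r = 0.976). These are descriptions over the same 8 libraries in 4 groups, with shared depth and scaling.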

How the data were processed

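Per the labels' protocols, an RNeasy Micro kit gave the RNA and a TruSeq RNA kit the libraries. The submitters' processing notes name Subread, featureCounts and limma and the build GRCm38 (mm10), with no role or version. The deposited series table holds raw counts per Entrez gene for 8 libraries, per the file headers. Log2 FPKM, deposited in a file per library, cover 13945 genes, per the file headers; after the length term, their sorted values were nearly identical between libraries, as after quantile normalization. Symbols came from the deposited files for 13860 genes and from RefSeq (GRCm38.p6) for 11720, and 1599 genes had none.

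Counts were tested in R 4.3.3 with edgeR 4.0.16. Genes under the filterByExpr minimum count of 10 were removed, library sizes were TMM-scaled, and a quasi-likelihood model with 4 group means was fitted to all 8 libraries (4 residual and 3.06 prior degrees of freedom). The quasi-likelihood p of edgeR was adjusted over 15073 genes by the Benjamini-Hochberg method, and called below 0.05. The SE is the absolute log2 fold change over the square root of F. The fit was tested on simulated data. There, 14% of log2 changes of 1 were called in each knockout comparison. Of changes of 1.5, 36% were called in Blimp1KO and 54% in Xbp1KO, and of changes of 2, 88% and 82%. Genes left unchanged in the simulation gave 13 calls in Blimp1KO and 6 in Xbp1KO. A gene without a call may thus still have changed, and a called gene may not have. The 10 genes and the other lists were chosen with earlier results of these data known; 1 gene was taken out of the list of further adhesion molecules afterwards and is not reported here. All 10 genes are named; of each other list, up to 4 called genes with the smallest p per comparison, or up to 2 where none was called; and the 3 genes most correlated with each called member among protein-coding genes whose average log2 CPM reached 3. Alternatives were other scalings and filters, DESeq2 1.42.0, limma 3.58.1 on counts (voom) and on FPKM, batches alone, pooled WT, a replicate block and leaving out each library; leaving out Xbp1KO replicate 2 and WT replicate 4 together was added after seeing the data.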

Additional observations from a re-analysis of the deposited data

Results flagged for a closer look

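The effects of the 2 knockouts differed for 2 of the genes named above, by a contrast of the effects in edgeR's quasi-likelihood test. For Itgb2, the effect of Blimp1KO minus that of Xbp1KO was 3.05 on the log2 scale (adjusted p = 0.0476), from -0.36 in Blimp1KO and -3.41 in Xbp1KO; over 16 alternatives it ranged from 2.64 to 3.88, and the call was lost in 7 of them (adjusted p up to 0.221). For Cldn7 it was -2.11 (adjusted p = 0.0400), with 4.13 and 5.48 CPM in Blimp1KO against 11.5 and 8.57 CPM in WT of batch 1, while it had 15.7 and 12.7 CPM in Xbp1KO against 5.98 and 7.75 CPM in WT of batch 2. Over 16 alternatives the Cldn7 difference ranged from -2.45 to -1.83, and its call was lost in 7 (adjusted p up to 0.159).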

How the results depend on the processing

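The 10 genes had at least 1250 counts in every library. Of 530 values of the 10 genes under alternatives, 468 kept their direction and side of the threshold, 11 lost a call, 27 gained one and 24 turned direction; the causes were not tested unless stated. Relative to TMM, scaling by total counts shifted the median of all genes by 0.79 in Blimp1KO, 1.15 in Xbp1KO, 0.58 between WT batches and -0.36 for the difference between the effects, and with that shift the values turned to 0.27 (Sdc1), 0.070 (Itgal), 0.43 (Itgb2), 0.57 (Cd44), 0.43 (Itgb5) and 0.17 (Ptk2b) in Blimp1KO, and to 0.57 (Cd93), 0.31 (Itgb7), 1.08 (Itgal), 1.04 (Cd44), 0.13 (Itgav), 0.99 (Itgb3), 0.15 (Hs2st1), 0.047 (Glce) and 0.58 (Hyal2) in Xbp1KO. Pooled WT turned Itga4 to -0.28 and Epcam to -0.064 in Blimp1KO and Itgb5 to -0.19 in Xbp1KO, and limma on FPKM turned Epcam to -0.020 in Blimp1KO and Itgal to 0.11 in Xbp1KO.

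Called genes numbered 130 in Blimp1KO, and 5895 on total counts, 517 without a filter, 862 by DESeq2, 83 by voom, 20 with batch 1 alone and 269 with pooled WT. For Xbp1KO 1160 became 9474 on total counts and 2220 by DESeq2. For the difference 253 became 763 without a filter and 1180 by DESeq2. Between WT batches 423 became 2836 on total counts, 1662 without a filter, 1960 by DESeq2 and 204 by voom. Of the 10 genes, Blimp1KO had 0 called, and 5 on total counts, 2 without a filter (Cd93, Itgb7) and 3 by DESeq2 (Cd93, Itgb7, Itgal); Xbp1KO had 2, and 8 on total counts and 4 by DESeq2 (also Sdc1, Itgb7); the difference had 1, and 2 on total counts, 3 without a filter, 4 by DESeq2 and 3 on FPKM; the WT batches had 0, and 1 on total counts and 1 by DESeq2.

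Leaving out libraries gave 0 to 688 called genes in Blimp1KO: 688 and 230 without Blimp1KO replicates 1 and 2, 0 without either WT library of batch 1 (1160 and 1064 at an unadjusted p below 0.05), 3 without either WT library of batch 2, and 31 without Xbp1KO replicate 2 and WT replicate 4 together. In Xbp1KO it gave 59 to 2123: 2123 without Blimp1KO replicate 2, 546 and 566 without WT replicates 1 and 2, 225 and 313 without WT replicates 3 and 4, 329 and 319 without Xbp1KO replicates 1 and 2, and 59 without Xbp1KO replicate 2 and WT replicate 4 together. It gave 2 to 598 for the difference and 14 to 2963 between WT batches. Of the 10 genes it left 0 called in Blimp1KO, 1 to 2 in Xbp1KO, 0 to 2 for the difference and 0 to 1 between WT batches. Values that turned direction ranged from -0.45 to 0.70 (Itga4), -0.21 to 0.26 (Epcam) and -0.18 to 0.52 (Cd9) in Blimp1KO, from -0.32 to 0.11 (Itgal) and -0.29 to 0.012 (Cd44) in Xbp1KO, and from -0.28 to 0.13 (Cd44), -0.56 to 0.15 (Cd9) and -1.02 to 0.13 (Itga4) for the difference.

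The replicate numbers of batch 1 are shared by label only, with a correlation of deviations of 0.21 over 2 pairs. With the replicate block, 89 genes and 0 of the 10 were called in Blimp1KO.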
